A study of Mus musculus with 11 samples.

Results

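A set of 32 genes was expressed in the parental AML12 cells and in a line labelled as a *Txndc5* knock-in, but was silent or nearly so in the *Txndc5* knockout line. The set was chosen on the counts themselves. Counts were summed per gene name, and an annotated gene was kept when it had no more than 5 counts in each knockout library and 50 or more in each library of the other lines. Of 21889 annotated names (24849 genes with the newly assembled ones), 34 met these limits. The 2 that belong to 11 large families (*Serpina*, *Col*, *Itg*, *Lam*, *Sema*, *Eph*, *Efn*, *Slc*, *Gst*, *Krt* and *Cyp* names) were left out. Because the rule used the counts of all 3 lines, the loss in the knockout is given below as a description and without a test. The difference between the knock-in and the parental cells was not part of the rule and was tested.

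AML12 is a mouse hepatocyte line, and TXNDC5 is a protein disulfide isomerase of the endoplasmic reticulum. The knockout (KO) cells carry a CRISPR/Cas9 cut in *Txndc5* repaired with a puromycin resistance cassette and were selected with puromycin, and the labels call this genotype a knockdown. The wild-type (WT) cells are unedited AML12. In the KI cells, which the labels call a knock-in, *Txndc5* was added at the *Rosa26* locus. Polyadenylated RNA was sequenced from 4 KO libraries (numbered 5 to 8), 3 WT libraries (5-6, 7 and 8) and 4 KI libraries (5 to 8). The methods speak of stable clones, but neither they nor the labels say how many clones or separate cultures the libraries of one line came from. The p-values below therefore measure the spread between these libraries, and an effect of the edit and a difference between clones cannot be told apart.

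Total counts per library lay between 29840366 and 38422243. At this depth the floor of detection used here, 3 counts, is at most 1.01e-05% of a library, and it covers counting error only. *Txndc5* itself was counted 364, 287, 430 and 408 times in KO, 3299, 3429 and 4046 in the WT libraries, and 5654, 6511, 6723 and 5344 in the KI libraries. Scaled to library size (CPM, after TMM scaling, a correction for composition), this was 143 ± 4.37 (SD, n = 3) in WT and 169 ± 10.3 (SD, n = 4) in KI cells. KI exceeded WT cells by 0.24 on the log2 scale, which was not called (standard error, SE, 0.12, adjusted p = 0.136). A called rise of *Txndc5* was thus absent from the cells labelled KI, although every KI library lay above every WT library, before and after scaling. The summed level of 23 hepatocyte markers ranged from 7145 to 8515 CPM in KO, from 5411 to 7439 in WT and from 3561 to 4278 in KI libraries, with *Fgg* at 0 in both the KO and the WT libraries and *Asgr1* at 0 in the KO libraries. The order of these sums rests on *Alb*, albumin, at 4115 CPM in KO, 513 in WT and 246 in KI cells, and without it they were 3332 to 3830, 4985 to 7066 and 3401 to 3976 CPM. The 8 endothelial markers summed to no more than 0.425 CPM in any library. The 11 blood cell markers summed to between 376 and 669 CPM, nearly all of it from *Cd14*. Cholangiocyte markers summed to 1374 to 1530 CPM in KO, 3051 to 4419 in WT and 2645 to 3130 in KI libraries. The order of these sums rests on *Spp1*, at 246 CPM in KO, 2520 in WT and 1958 in KI cells. *Krt19* went the other way, at 1097 CPM in KO, 770 in WT and 747 in KI cells. Mesenchymal markers summed to 1640 to 1921 CPM in KO, 1657 to 2552 in WT and 1702 to 2036 in KI libraries. These sums rest mostly on *Vim* and *Fn1*, which went opposite ways. *Vim* was at 1223 CPM in KO, 771 in WT and 746 in KI cells, and *Fn1* at 338, 1075 and 870. The part of these marker levels in the silence of the 32 genes was not tested.

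A gene is transcribed from a promoter, and mouse promoters fall broadly into those rich in the dinucleotide CpG, which serve many widely expressed genes, and CpG-poor ones, which more often serve genes restricted to certain tissues. CpG sites can be methylated, and CpG-rich promoters of silent developmental genes, such as the *Hox* genes, are often held by Polycomb proteins. Neither methylation nor chromatin was measured here. The promoters of 4 of the 32 genes are shown because they span the range of CpG content in the set and include some of its most abundant members. Each line is the 250 bases before the start of the gene, 5′ to 3′ on the gene's own strand, from RefSeq on GRCm38.p6, with each CpG in capitals.
*Gnao1*, chr8:93810588-93810837, plus strand: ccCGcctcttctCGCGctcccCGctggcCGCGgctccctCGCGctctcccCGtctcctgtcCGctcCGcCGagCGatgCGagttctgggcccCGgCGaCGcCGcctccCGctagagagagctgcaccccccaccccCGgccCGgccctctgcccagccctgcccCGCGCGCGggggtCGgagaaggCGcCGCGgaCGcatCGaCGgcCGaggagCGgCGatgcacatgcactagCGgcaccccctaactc
*Flt1*, chr5:147726012-147726261, minus strand: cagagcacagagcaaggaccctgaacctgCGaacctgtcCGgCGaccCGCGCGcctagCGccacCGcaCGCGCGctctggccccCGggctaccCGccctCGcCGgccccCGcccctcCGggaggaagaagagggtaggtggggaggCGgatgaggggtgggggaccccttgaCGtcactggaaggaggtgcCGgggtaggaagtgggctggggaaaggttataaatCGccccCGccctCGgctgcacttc
*St8sia4*, chr1:95667595-95667844, minus strand: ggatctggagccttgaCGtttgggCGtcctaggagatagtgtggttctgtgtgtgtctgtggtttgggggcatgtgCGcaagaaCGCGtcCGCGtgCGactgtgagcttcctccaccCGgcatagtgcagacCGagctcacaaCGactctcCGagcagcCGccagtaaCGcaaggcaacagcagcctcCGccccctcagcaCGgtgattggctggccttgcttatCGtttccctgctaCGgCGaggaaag
*Ivl*, chr3:92573736-92573985, minus strand: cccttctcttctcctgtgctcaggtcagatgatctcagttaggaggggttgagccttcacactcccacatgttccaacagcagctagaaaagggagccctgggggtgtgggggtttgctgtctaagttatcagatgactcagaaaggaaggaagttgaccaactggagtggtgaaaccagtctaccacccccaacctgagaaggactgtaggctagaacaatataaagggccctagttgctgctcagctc

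These stretches hold 36 CpG sites for *Gnao1*, 23 for *Flt1*, 19 for *St8sia4* and 0 for *Ivl*. All 4 genes were at or about the floor in the KO cells. *St8sia4* and *Flt1* had 661 or more counts in every WT and KI library, and *Ivl* had between 79 and 175.

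Over the 32 genes, the 4 KO libraries held 15, 17, 18 and 21 counts in all. The WT libraries held 8491, 9504 and 12005 counts of the same genes, and the KI libraries 15668, 14487, 17124 and 14888. In 16 genes all 4 KO libraries were at 0. The other 16 had a few counts in at least 1 KO library, at most 10 over the 4 libraries (*Alpl*). For the 16 genes at 0, the level in KO cells was at least 37.7-fold (*Lrrk2*) to at least 510.3-fold (*Stra6*) lower than in WT cells, computed against a floor of 3 counts in each KO library. For the 16 with counts, the ratio of the WT to the KO level ran from 101 (*Scamp5*, exact 95% interval 48.5 to 253) to 2847 (*Flt1*, 787 to 23516). The intervals cover counting error only, and that of *Flt1* rests on 2 KO counts in 1 library, under the floor, so the ratios do not rank these genes against those at 0. The rule sets the direction of all these folds. In bulk RNA, fewer cells that express a gene and less RNA per cell cannot be told apart.

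**Figure D1:**
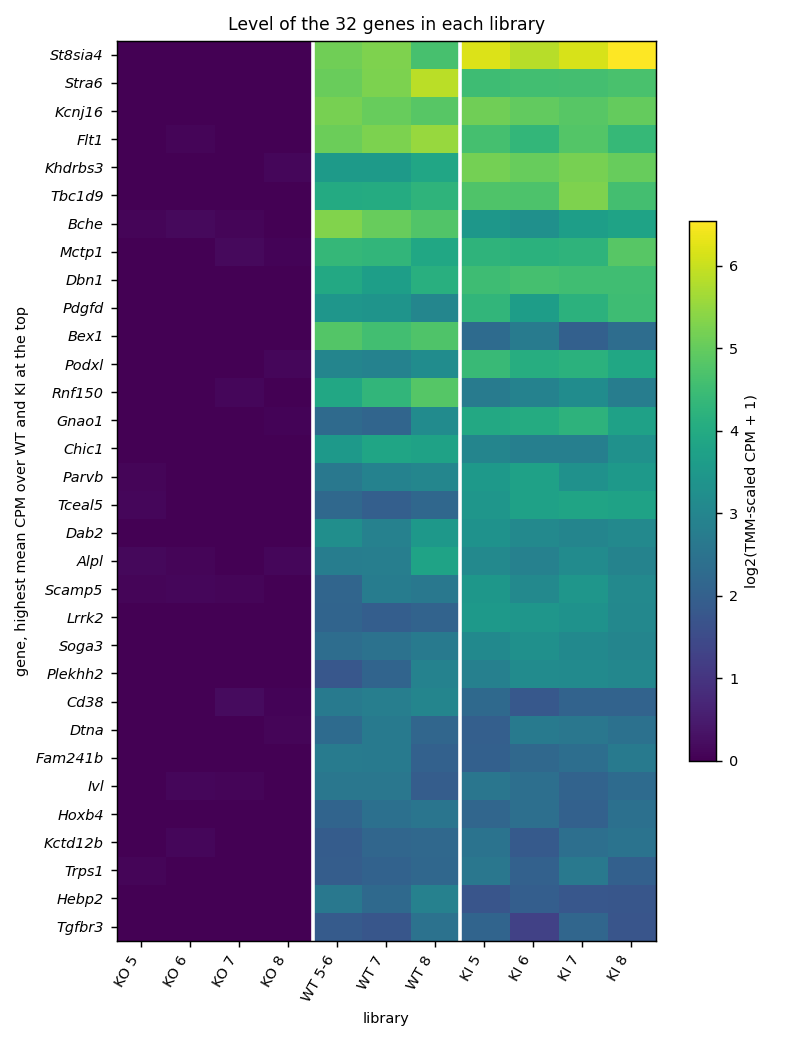
Level of each of the 32 genes (rows, highest mean over WT and KI at the top) in each of the 11 libraries (columns, grouped by line), as log2 of TMM-scaled CPM plus 1. The 4 KO columns are at or near 0 in every row, as the rule requires, while the WT and KI columns differ from each other gene by gene, with *St8sia4* brightest in KI and *Stra6* in WT.

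The levels in the expressing cells were moderate. Mean CPM ranged from 3.13 (*Lrrk2*) to 42.4 (*Stra6*) in WT cells, with a median of 6.70, and from 2.50 (*Hebp2*) to 73.1 (*St8sia4*) in KI cells, with a median of 8.18. Per kilobase of exon, the level ran from 0.237 to 21.2 CPM in WT cells with *Bex1* the highest, and from 0.264 to 9.51 in KI cells with *Tceal5* the highest. In WT cells 25 of the 32 genes reached 1 CPM per kilobase.

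Between the KI and WT cells, where no direction was set by the rule, 21 of the 32 genes (65.6%) were called at an adjusted p under 0.05 by edgeR's quasi-likelihood test, against 42.3% of all 13534 genes tested. Of these, 13 were higher and 8 lower in KI cells, where 21.2% of all genes were higher and 21% lower. The set holds no gene with low counts in these lines, so the nearer background is the 10660 genes with 50 or more counts in every WT and KI library, of which 44.3% were called. The median size of the log2 fold change was 0.80 over the 32 genes and 0.40 over those 10660. In 10 of the 32 (31.3%) the called change exceeded 1 on the log2 scale, compared with 11.8% of the 10660. The KI and WT libraries did not overlap, after scaling, in 20 of the 32 genes (62.5%), against 44.7% of all genes tested. With library totals in place of TMM (scaling by depth alone), 17 were called, 14 higher and 3 lower. That scaling moved the median change over all tested genes, on the log2 scale, from -0.02 to 0.30.

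**Figure D2:**
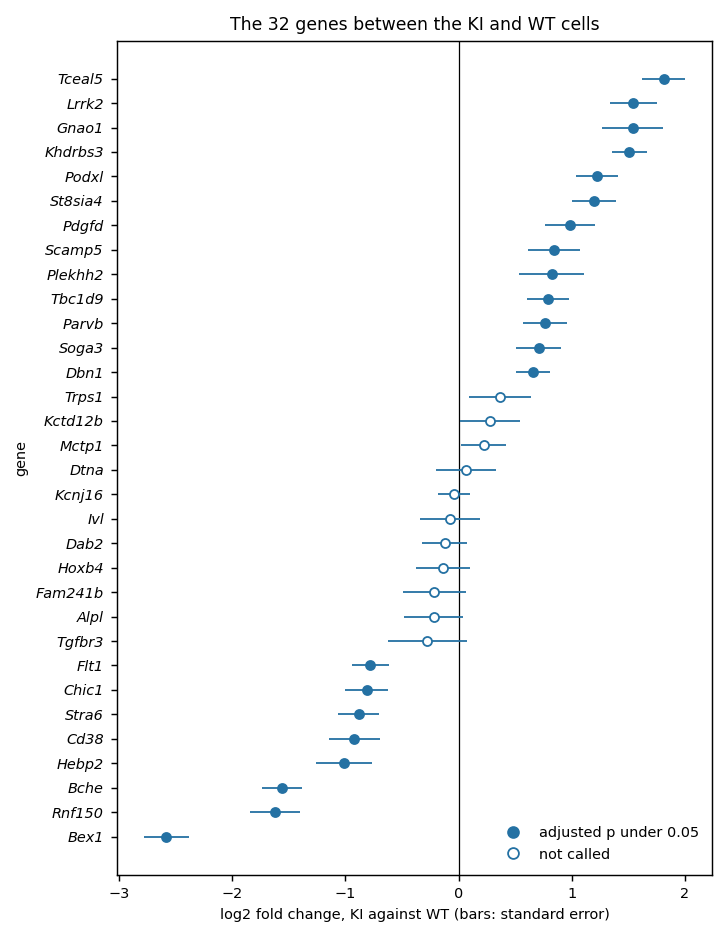
Log2 fold change of each of the 32 genes in KI against WT cells (x axis), with bars of 1 SE, from edgeR's quasi-likelihood fit on 4 KI and 3 WT libraries, and filled points for genes with an adjusted p under 0.05. The 13 called rises run from *Dbn1* (0.66) to *Tceal5* (1.81), the 8 called falls from *Flt1* (-0.78) to *Bex1* (-2.58), and 11 genes between them were not called.

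Receptors and adhesion proteins, with the ligand *Pdgfd*, made up 7 of the 32 genes. *Flt1*, a receptor for vascular endothelial growth factor, had 0, 2, 0 and 0 counts in KO, 737, 917 and 1284 in the WT libraries, and 846, 700, 1016 and 661 in the KI libraries. The raw counts of the WT and KI libraries overlapped, but scaled to library size the mean was 38.4 ± 6.43 CPM (SD, n = 3) in WT and 22.4 ± 3.35 (SD, n = 4) in KI cells. KI cells were lower, at -0.78 on the log2 scale (SE 0.16, adjusted p = 0.00248), and with library totals it was -0.46 and no longer called. The 8 endothelial markers noted above were at or near 0, so *Flt1* was not accompanied by them in these cells.

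*Stra6*, the membrane receptor through which cells take up retinol, was at 0 in all KO libraries, with 728, 918 and 1626 counts in WT and 779, 817, 877 and 809 in KI libraries. The library WT 8 held by far the most, and the 4 KI libraries lay close together. KI cells were lower, at -0.88 on the log2 scale (SE 0.18, adjusted p = 0.00212), and -0.59 and not called with library totals. *Pdgfd*, a ligand of the platelet-derived growth factor family, was at 0 in the KO libraries, at 219, 237 and 197 in WT and at 676, 417, 668 and 716 in KI libraries. Every KI library lay above every WT library, and the gene rose by 0.98 on the log2 scale (SE 0.22, adjusted p = 0.00355). *Podxl*, a sialomucin of the cell surface, had 0, 0, 0 and 4 counts in KO, 154, 161 and 230 in WT and 738, 572, 651 and 456 in KI libraries. It also rose, by 1.22 on the log2 scale (SE 0.18, adjusted p = 0.000229).

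*Tgfbr3*, betaglycan, which presents transforming growth factor beta to its signalling receptors, was among the lowest of the set. It was at 0 in KO, at 60, 59 and 128 in WT and at 120, 51, 133 and 75 in KI libraries. WT and KI overlapped widely (log2 fold change -0.28, SE 0.35, adjusted p = 0.549). The adaptor of integrin-linked kinase *Parvb* rose in KI cells by 0.76 on the log2 scale (SE 0.19, adjusted p = 0.00663), whereas the endocytic adaptor *Dab2* stood at -0.12 and was not called (SE 0.20, adjusted p = 0.654).

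Enzymes numbered 6, of which 2 rose and 3 fell in KI cells. *St8sia4* adds polysialic acid to glycoproteins and was the most abundant member in KI cells. It was at 0 in the KO libraries, at 759, 934 and 680 in WT and at 2619, 2064, 2662 and 3046 in KI libraries. Every KI library lay far above every WT library, and the rise was 1.19 on the log2 scale (SE 0.20, adjusted p = 0.000436). The level in KO cells was at least 881-fold lower than in KI and at least 384-fold lower than in WT cells. The protein kinase *Lrrk2* was likewise at 0 in KO libraries, and went from 74, 71 and 91 counts in WT to 375, 361, 352 and 240 in KI libraries. It rose by 1.54 on the log2 scale (SE 0.20, adjusted p = 9.28e-05).

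The 3 enzymes that fell were *Bche*, *Rnf150* and *Cd38*. *Bche*, butyrylcholinesterase, an enzyme the liver secretes, had 2, 4, 2 and 0 counts in KO, 862, 778 and 742 in WT and 356, 315, 447 and 428 in KI libraries. Every KI library lay below every WT library (log2 fold change -1.56, SE 0.18, adjusted p = 3.29e-05). *Rnf150*, which encodes a RING finger protein, had 0, 0, 3 and 0 counts in KO, 321, 470 and 764 in WT and 199, 235, 309 and 194 in KI libraries. It fell by 1.62 on the log2 scale (SE 0.22, adjusted p = 0.000108).

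*Cd38* encodes an enzyme that consumes NAD. It lay nearest the upper limit for KO counts, with 0, 0, 5 and 2 in the KO, 120, 147 and 193 in the WT and 133, 91, 123 and 106 in the KI libraries. After scaling, KI cells were lower, at -0.92 on the log2 scale (SE 0.22, adjusted p = 0.00534), but with library totals it was -0.61 and not called. *Alpl*, the tissue-nonspecific alkaline phosphatase, kept the most counts in the KO cells, 4, 2, 0 and 4, beside 132, 147 and 365 in WT and 265, 231, 303 and 218 in KI libraries. WT 8 stood above the other WT libraries. The KI difference of *Alpl*, -0.22 on the log2 scale (adjusted p = 0.523), changed sign to 0.26 without WT 8.

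Channels and proteins of membrane traffic numbered 5. *Kcnj16* encodes Kir5.1, a subunit of inwardly rectifying potassium channels. It was at 0 in KO libraries, at 805, 789 and 778 in WT and at 1207, 1112, 1066 and 1025 in KI libraries. Scaled levels were 31.8 ± 4.17 CPM (SD, n = 3) in WT and 30.9 ± 2.42 (SD, n = 4) in KI cells, and they did not differ beyond that spread (log2 fold change -0.04, SE 0.14, adjusted p = 0.839). Its level in KO cells was at least 382.6-fold lower than in WT cells, a bound close to that of *St8sia4*.

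*Mctp1*, a calcium-binding protein of membranes, had 0, 0, 4 and 2 counts in KO, 438, 464 and 393 in WT and 650, 617, 696 and 919 in KI libraries. The library KI 8 stood apart from the other KI libraries, and the gene was not called (log2 fold change 0.22, SE 0.20, adjusted p = 0.389). *Scamp5*, a secretory carrier membrane protein, rose by 0.84 on the log2 scale (SE 0.23, adjusted p = 0.0103). *Chic1* fell by 0.81 (SE 0.19, adjusted p = 0.00414), and was at -0.50 and not called with library totals. *Kctd12b*, near the lower limit, had 0, 3, 0 and 0 counts in KO, 61, 87 and 103 in WT and 167, 94, 161 and 151 in KI libraries, and was not called (log2 fold change 0.28, SE 0.27, adjusted p = 0.425).

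Signalling and cytoskeletal proteins numbered 5, and 4 of them rose in KI cells while none fell. *Gnao1*, the alpha subunit of the G protein Go, had 0, 0, 0 and 2 counts in KO, 86, 85 and 226 in WT and 513, 557, 677 and 408 in KI libraries. The KI libraries all lay above the WT libraries, of which WT 8 was the highest. *Gnao1* rose by 1.54 on the log2 scale (SE 0.27, adjusted p = 0.000705), and by 2.02 without WT 8.

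*Tbc1d9*, of the Rab GTPase-activating family, was at 0 in KO, at 337, 378 and 515 in WT and at 923, 921, 1443 and 764 in KI libraries, and rose by 0.79 on the log2 scale (SE 0.19, adjusted p = 0.00464). *Dbn1*, the actin-binding protein drebrin, was at 0 in KO, at 324, 292 and 466 in WT and at 782, 857, 854 and 726 in KI libraries, and rose by 0.66 (SE 0.15, adjusted p = 0.00442). In both genes the counts of the KI libraries lay above those of all WT libraries.

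*Plekhh2* was at 0 in KO, at 55, 83 and 182 in WT and at 224, 289, 298 and 237 in KI libraries. Its rise of 0.82 on the log2 scale (SE 0.28, adjusted p = 0.0338) was the call with the highest adjusted p. It was lost when WT 5-6, WT 7, KI 6, KI 7 or KI 8 was left out, with values of 0.57, 0.70, 0.78, 0.79 and 0.83, and was 1.31 without WT 8. *Dtna*, dystrobrevin alpha, was not called (log2 fold change 0.06, SE 0.27, adjusted p = 0.868).

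Nuclear and RNA-binding proteins numbered 5. The homeobox factor *Hoxb4* and the zinc finger repressor *Trps1* were not called between KI and WT cells, at -0.14 (SE 0.24, adjusted p = 0.662) and 0.37 (SE 0.27, adjusted p = 0.298). *Khdrbs3*, an RNA-binding regulator of splicing, had 0, 0, 0 and 4 counts in KO, 242, 268 and 383 in WT and 1252, 1147, 1378 and 1031 in KI libraries. It rose by 1.51 on the log2 scale (SE 0.15, adjusted p = 1.23e-05).

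*Tceal5* and *Bex1*, which belong to related families of small proteins, are next to each other on chromosome X among the annotated genes with a line in the table, and moved in opposite directions between KI and WT cells. *Tceal5* had 3, 0, 0 and 0 counts in KO, 81, 73 and 101 in WT and 351, 450, 502 and 417 in KI libraries, and rose by 1.81 on the log2 scale (SE 0.19, adjusted p = 1.72e-05). *Bex1* was at 0 in KO, at 603, 567 and 726 in WT and at 138, 204, 117 and 133 in KI libraries, and fell by 2.58 (SE 0.20, adjusted p = 1.78e-06). These were the largest rise and the largest fall of the set. Both families hold close copies, and how reads that match several copies were counted is not described, so their counts carry that uncertainty. The other pair of adjacent members, *Rnf150* and *Tbc1d9* on chromosome 8, also went opposite ways, with the values given above.

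Of the remaining 4 genes, *Soga3* rose in KI cells by 0.71 (SE 0.20, adjusted p = 0.0117). The heme-binding protein gene *Hebp2* was at 0 in KO, at 116, 92 and 181 in WT and at 82, 105, 94 and 77 in KI libraries, and fell by 1.01 (SE 0.25, adjusted p = 0.00604), with -0.708 and no call under library totals. *Ivl*, involucrin, a protein of the cornified envelope of skin, and *Fam241b* were not called, at -0.08 (SE 0.26, adjusted p = 0.840) and -0.22 (SE 0.28, adjusted p = 0.558).

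Library WT 8 was the highest WT library in scaled level for 19 of the 32 genes, against 44.5% of all genes with 50 or more counts. The coefficient of variation between libraries had a median over the 32 genes of 17.6% in WT and 16.0% in KI cells, where those other genes had 18.5% and 10.98%. Across WT libraries it ran from 7.41% to 51.3%.

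The limits of the rule cut through a continuum. Just inside the limit on KO counts lay *Cd38* with a highest KO count of 5 and *Alpl* and *Bche* with 4, and just outside lay *Evl* and *Rnf180* with 6. Just inside the lower limit lay *Tgfbr3* (51 counts in its lowest WT or KI library), *Plekhh2* (55) and *Kctd12b* (61), and just outside it *Lrrc32* (47), *Sall3* (46) and *Anxa10* (43). The same limits with the roles of the lines exchanged gave 4 genes silent only in KI and 1 only in WT, and 3 silent in both edited lines. The reverse pattern, on only in KO cells, held 12 genes.

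By chromosome, 5 of the 32 genes (15.6%) were on chromosome 15 (*Dab2*, *Khdrbs3*, *Lrrk2*, *Parvb* and *Trps1*), where 4.08% of the 10330 annotated genes with 50 or more counts in every WT and KI library lie. Chromosome X held 4 (12.5%, against 3.14%), which were *Bex1*, *Chic1*, *Kctd12b* and *Tceal5*. The other 23 were spread over 12 chromosomes with at most 3 each. Over all tested genes of chromosome 15 the median of KO against WT was 0.06 on the log2 scale, and over those of chromosome X it was -0.13.

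The genes next to the 32 on either side (by RefSeq order on GRCm38.p6, used for names and order only) numbered 60, of which 17 had no count in any library. In the KO against WT comparison 31 could be tested, and 12 of these (38.7%) were lower and 6 (19.4%) higher, where 28.4% of all 13359 genes tested were lower and 26.7% higher. Their median was -0.27 on the log2 scale, against -0.03 over all genes. With library totals, 11 were lower and 12 higher. Against KI cells, a comparison that shares the KO libraries, 14 of 30 were lower and 4 higher (27% of all genes each way). Of the 32 genes, 26 had a tested neighbour. The neighbours lower in KO cells, in both comparisons, included *Hoxb3* and *9330159F19Rik*, which overlap the members *Hoxb4* and *Soga3*. Their counts may not be separate from those of the members, which the rule held at 5 or fewer in KO libraries.

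Beside several silent genes the neighbour stayed expressed in the KO cells. *Prr7*, beside *Dbn1*, had 66, 99, 89 and 162 counts in KO and 23, 21 and 29 in WT libraries, and rose by 1.46 on the log2 scale (SE 0.33, adjusted p = 0.00333). *Plekhh2* lay between *Thada*, which rose by 1.29 (SE 0.16, adjusted p = 7.25e-05), and *Dync2li1*, which fell by 2.13 (SE 0.19, adjusted p = 8.3e-06). *Pan3* and *Pomp*, on the sides of *Flt1*, were not called, at 0.25 (SE 0.14, adjusted p = 0.154) and -0.12 (SE 0.17, adjusted p = 0.563).

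In 3 of the 60 neighbours, too, no KO library had more than 5 counts while every WT library had 10 or more, a pattern met by 0.768% of all annotated genes. *Kcnj2*, another potassium channel gene beside *Kcnj16*, was at 0 in KO, at 27, 17 and 31 in WT and at 7, 21, 12 and 14 in KI libraries. *Brdt*, beside *Tgfbr3*, was at 0 in KO, at 85, 77 and 110 in WT and at 35, 41, 25 and 42 in KI libraries, a level at least 43.3-fold lower in KO than in WT cells. *9330159F19Rik* overlaps *Soga3*, and was at 0 in KO, at 12, 42 and 76 in WT and at 147, 233, 199 and 118 in KI libraries. No strand-specific counting is described, so the reads of these overlapping genes cannot be told apart. The KO counts of *9330159F19Rik* may therefore not be independent of the rule that chose *Soga3*. Beside *Cd38*, its relative *Bst1* fell by 1.26 in KO against WT cells (SE 0.26, adjusted p = 0.00182) but kept 109, 96, 159 and 109 counts in the KO libraries. *Bst1* was lowest in KI cells, with 6, 26, 17 and 6 counts, against 219, 193 and 171 in WT libraries. KO cells were higher than KI cells by 2.94 (SE 0.41, adjusted p = 2.6e-05), unlike the pattern of the set.

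**Figure D3:**
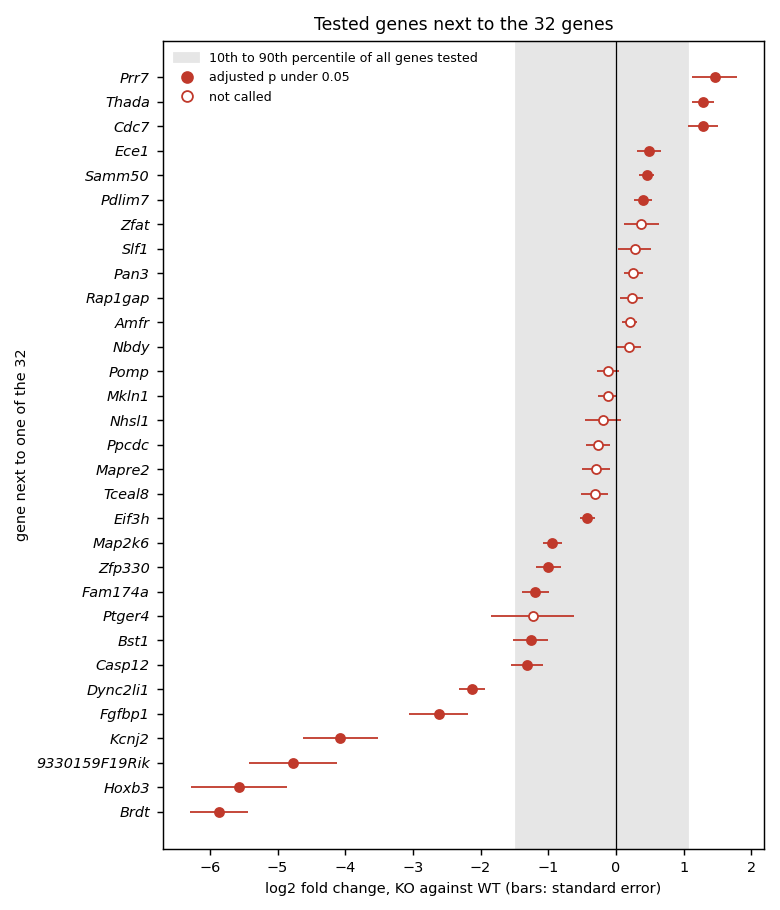
Log2 fold change in KO against WT cells of the 31 tested genes next to the 32 (x axis, bars of 1 SE, filled where the adjusted p was under 0.05), with the 10th to 90th percentile of all genes tested (-1.47 to 1.07) shaded. The 6 neighbours below the shaded band include *Brdt*, *Hoxb3*, *9330159F19Rik* and *Kcnj2*, and for those at 0 in every KO library the plotted size depends on the prior count of the fit.

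*Hoxb4* was the only *Hox* gene in the set, and some but not all genes of its cluster were likewise at or near 0 in KO and expressed in WT and KI cells. The *Hox* clusters were looked at after the values of *Hoxb3* had been seen. *Hoxb4* was at 0 in all KO libraries, at 75, 108 and 136 in WT and at 125, 154, 119 and 142 in KI libraries. *Hoxb3*, which overlaps it, had 12, 0, 0 and 0 counts in KO, 158, 209 and 139 in WT and 181, 226, 245 and 274 in KI libraries. *Hoxb13*, at the far end of the cluster, had 0, 8, 0 and 0 counts in KO, 542, 506 and 592 in WT and 599, 614, 791 and 668 in KI libraries.

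*Hoxb3* fell in KO against WT cells by 5.57 on the log2 scale (SE 0.71, adjusted p = 8.22e-05) and *Hoxb13* by 7.54 (SE 0.49, adjusted p = 8.51e-07). How reads in the span shared by *Hoxb3* and *Hoxb4* were counted is not described, so the counts of these genes may not be separate. *Hoxb6*, at 31, 33 and 28 counts in WT libraries, was at 0 in every KO library and so at least 14.9-fold lower, and *Hoxb7* at least 9.42-fold lower. *Hoxb2*, by contrast, had 11, 2 and 8 counts in WT and was at 0 in all KO and KI libraries, and *Hoxb1* and *Hoxb9* had no more than 3 counts in any library. All 10 *Hoxb* genes together had 20 counts in the KO, 2677 in the WT and 4798 in the KI libraries. In the *Hoxc* cluster the 1 tested gene, *Hoxc6*, fell by 2.79 (SE 0.64, adjusted p = 0.00360), and the *Hoxd* genes had no counts in any library.

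**Figure D4:**
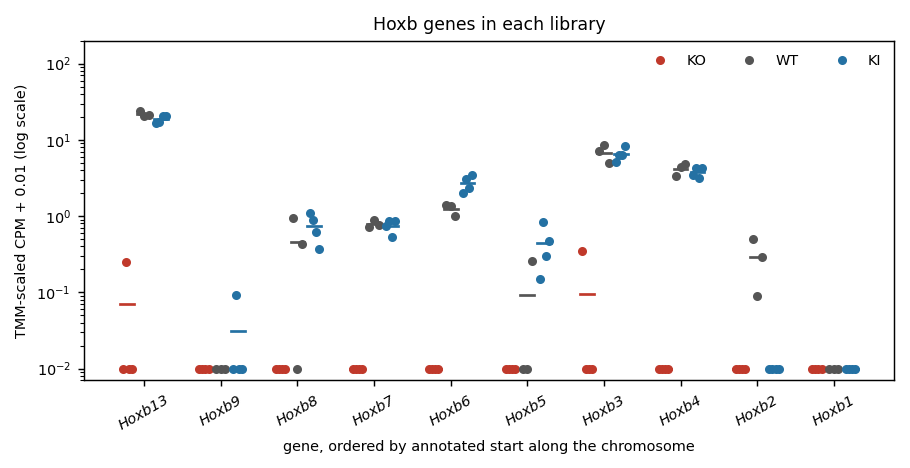
Level of the 10 *Hoxb* genes in each library, as TMM-scaled CPM plus 0.01 on a log scale, with 1 point per library, short lines at group means, and genes ordered by their annotated start. KO points lie at the bottom except for 1 library each of *Hoxb13* and *Hoxb3*, while *Hoxb13*, *Hoxb7*, *Hoxb6*, *Hoxb3* and *Hoxb4* are above it in every WT and KI library.

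Genes that share a symbol stem with a member numbered 111, and 70 of them could be tested in KO against WT cells. Of these, 24 (34.3%) were lower and 12 (17.1%) higher, against 28.4% and 26.7% of all genes tested, with a median of -0.17 on the log2 scale. With library totals the counts were 15 lower and 25 higher. The 4 tested *Hoxb* relatives were all among the 24 lower genes. Against KI cells, 26 of 68 relatives (38.2%) were lower and 20 (29.4%) higher in KO cells, with a median of -0.06. Of all genes, 27% were called each way in that comparison. *Lrrk1*, the relative of *Lrrk2*, rose by 1.28 (SE 0.19, adjusted p = 0.000246), and *Khdrbs1*, the relative of *Khdrbs3*, by 0.56 (SE 0.15, adjusted p = 0.00936). *Hebp1* fell by 1.11 (SE 0.20, adjusted p = 0.000796) but kept a mean of 69.3 CPM in the KO cells, and *Chic2* fell by 0.81 (SE 0.13, adjusted p = 0.000341). In KI against WT cells *Lrrk1* and *Khdrbs1* rose as well, by 0.73 and 0.52 (adjusted p = 0.00611 and 0.0149). *Hebp1* also fell there, by 1.08 (adjusted p = 0.00142), while *Chic2* was not called (adjusted p = 0.0981). KO and KI cells were not called different for *Hebp1* and *Khdrbs1* (adjusted p = 0.984 and 0.607). Of 28 tested *Tbc1d* genes 9 were lower and 7 higher. *Kctd15* was at 0 in the KO libraries, at 85, 54 and 95 in WT but only at 4, 7, 20 and 2 in KI libraries, which kept it out of the set.

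Retinol uptake by *Stra6* is one step in retinoid handling, and the other genes of that list were mixed in KO against WT cells. Of 15 tested besides *Stra6*, 5 (33.3%) were lower and 3 (20%) higher, against 28.4% and 26.7% of all genes tested, with a median of 0.01 on the log2 scale (-0.03 over all genes). The retinoic acid receptor *Rarb* was at 0 in the KO libraries, at 31, 49 and 26 in WT and at 23, 29, 18 and 40 in KI libraries, at least 17.2-fold lower in KO than in WT cells. *Dhrs3*, which reduces retinaldehyde, fell by 1.56 (SE 0.14, adjusted p = 7.57e-06). *Aldh1a1*, which makes retinoic acid, fell by 1.13 (SE 0.17, adjusted p = 0.000240), but also fell in KI against WT cells, by 1.20 (SE 0.16, adjusted p = 0.000103), and KO and KI cells were not called different. *Dhrs3* was not called in KI against WT cells (-0.07, adjusted p = 0.690). *Bco1*, which cleaves carotene, rose in KO against WT cells by 2.24 (SE 0.32, adjusted p = 0.000186).

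Genes of DNA methylation and histone silencing were not among the 32. The list of these genes also held *Tet1*, *Tet2*, *Tet3*, *Tdg*, *Kdm6a* and *Kdm6b*, so it was not made up of silencing enzymes alone. Of 36 tested in KO against WT cells, 13 (36.1%) were higher and 6 (16.7%) lower, against 26.7% and 28.4% of all genes tested, with a median of 0.29 on the log2 scale. In KI against WT cells 14 of 37 (37.8%) were higher and 1 (2.7%) lower, against 21.2% and 21% of all genes tested. In KO against KI cells 6 of 37 (16.2%) were higher and 9 (24.3%) lower, against 27% of all genes each way. The median of the list in KO against KI cells was -0.19 on the log2 scale. *Uhrf1*, which guides maintenance methylation, rose by 2.07 (SE 0.18, adjusted p = 5.31e-06), with counts of 2917, 3653, 2539 and 4280 in KO and 491, 612 and 490 in WT libraries. *Dnmt1*, the maintenance methyltransferase, rose by 1.48 (SE 0.18, adjusted p = 6.71e-05). *Dnmt3a*, another methyltransferase of the list, went the other way in KO against WT cells, at -0.73 (SE 0.18, adjusted p = 0.00596). It was also lower in KO than in KI cells, at -0.88 (adjusted p = 9.48e-05), and was not called in KI against WT cells (adjusted p = 0.432). *Dnmt3b* was not called in KO against WT cells (adjusted p = 0.572). The Polycomb genes *Rnf2* and *Suz12* fell by 1.5 (SE 0.17, adjusted p = 3.07e-05) and 0.88 (SE 0.11, adjusted p = 8.67e-05), and *Ezh2* rose by 0.80 (SE 0.13, adjusted p = 0.000446). In KI against WT cells *Uhrf1*, *Dnmt1* and *Ezh2* rose as well, by 1.39, 1.35 and 1.13 (adjusted p = 3.91e-05, 5.81e-05 and 5.7e-05), and *Rnf2* fell by 1.19 (adjusted p = 0.000222). Between KO and KI cells *Uhrf1* was higher in KO by 0.71 (adjusted p = 0.000115), *Ezh2* was lower, at -0.31 (adjusted p = 0.0151), and *Dnmt1* was not called (adjusted p = 0.283). The part of these genes in the loss of the 32 was not tested. Of 13 tested cadherin genes, 6 (46.2%) were lower and 4 (30.8%) higher (median -0.57). Among the marker lists, to be read against the same 28.4% lower and 26.7% higher of all genes tested, 10 of 22 hepatocyte genes were lower and 12 higher (median 0.59), and 5 of 6 cholangiocyte genes were lower and 1 higher (median -1.27). Of 8 mesenchymal genes 1 was lower and 5 higher (median 0.56), of 4 blood genes 3 were lower (median -1.22), and no endothelial gene had enough counts to be tested.

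A promoter sequence was found in the RefSeq table for 25 of the 32 genes (300 bases each, 250 before and 50 after the start). A gene was counted as CpG-rich when a promoter of it had an observed/expected CpG of 0.6 or more and at least 50% GC. This held for 12 of the 25 (48%), against 77.1% of 8377 genes with 50 or more counts in every WT and KI library and 48.3% of 17481 annotated genes. With a limit of 0.75 the shares were 32%, 59.1% and 35.3%. Of the 12 CpG-rich members, 7 rose and 2 fell in KI against WT cells, and of the 13 others 4 rose and 5 fell. The same shares over all CpG-rich and all other genes were not computed, so these counts do not tie promoter class to direction. Among the 25 members, *Gnao1* had the highest observed/expected CpG (1.05) and rose, and *Ivl* the lowest (0) and was not called.

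**Figure D5:**
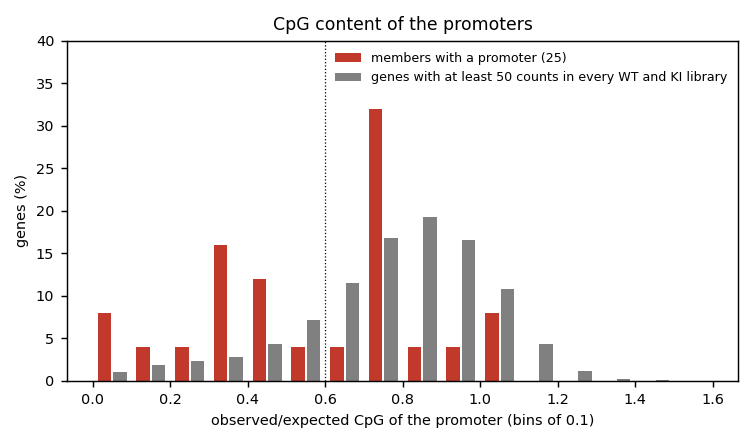
Share of genes (y axis, percent) by observed/expected CpG of their promoter, taking the highest where a gene has several (x axis, bins of 0.1), for the 25 members with a promoter and for the genes with 50 or more counts in every WT and KI library. The dotted line marks 0.6. The members have a median of 0.692 and the other genes 0.811, and 12 members lie below the line.

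Motifs were searched on both strands of the same 300 bases. The TATA box motif TATAAA was in 6 of 25 members (24%), against 8.17% of the genes with 50 or more counts and 14.8% of annotated genes. It is in the printed promoter of *Flt1* as ttataaat and in that of *Ivl* as atataaag. The GC box GGGCGG was in 56% of members, against 71.4% and 49.2%. The CCAAT box was in 32%, against 44.0% and 42.3%, and the E-box CANNTG in 80%, against 66.3% and 72.1%. TGANTCA, bound by AP-1, was in 8% (5.93% and 8.12%), TGACGTCA, bound by CREB, in 4% (3.86% and 2.55%), and TGACNNNGC, the antioxidant response element, in 16% (17.2% and 14.9%). The motifs CAAAGTCCA of HNF4A and TGTTTAC of the FOXA factors were in none of the 25, and in 0.454% and 3.14% of the genes with 50 or more counts. A match says only that the letters are in this window.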

How the data were processed

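The 11 libraries of polyadenylated RNA from KO, WT and KI AML12 cells were sequenced at BGI. The authors deposited raw counts of reads per gene, without normalization. The labels name HISAT2, TopHat2, Bowtie2 and StringTie, without versions or roles, and the genome build is not given in the sources used here. Another 11 columns of FPKM, with decimal points lost, and the authors' own DESeq2 comparisons were not used. Of 26472 table lines, 10 broken ones were left out, and counts were summed by gene name. Total counts per library were 30380360 to 38422243 in KO, 29840366 to 30364098 in WT and 32360709 to 35335070 in KI cells. Genes passing edgeR's filter were scaled by TMM and tested by edgeR's quasi-likelihood test (edgeR 4.0.16, R 4.3.3, robust, prior count 2) over all genes, with only the libraries of the 2 groups compared and Benjamini-Hochberg adjustment, called under 0.05, and checked on simulated data. DESeq2 1.42.0, other scalings, no filter, all libraries, a replicate block and leaving out each library were tried. Libraries of the same number did not vary together (correlations from -0.19 to 0.21), so numbers were not used as pairs. No libraries of a group agreed within counting noise. Ratios to KO counts carry counting error only. Counts in every library are given for the 12 most abundant members, the 6 largest called rises and falls, adjacent members and those nearest the limits. Some results for genes outside the set are not reported here. Members and lists were chosen with earlier results of these data known. Promoters came from RefSeq on GRCm38.p6, and exon lengths from GENCODE M21. Python 3.11.15 was used for the rest.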

Additional observations from a re-analysis of the deposited data

Results flagged for a closer look

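In 48 groups of 4 libraries with any counts (16 KO and 32 KI), the library farthest out was compared with the others by Dixon's ratio. This ratio is the gap to the nearest other library over the whole range. Among the KI groups chance would mark about 1 in 20. That share does not apply to the KO groups, where the rule holds every count at 5 or fewer. In 10 genes the ratio in the KO libraries was 1, because a single KO library had counts while the other 3 were at 0. These were *Khdrbs3* and *Podxl* (4 counts in KO 8), *Dtna* (3 in KO 8), *Gnao1* (2 in KO 8), *Kctd12b* (3 in KO 6), *Flt1* (2 in KO 6), *Rnf150* (3 in KO 7), *Tceal5* (3 in KO 5), and *Parvb* and *Trps1* (2 in KO 5). All of these counts are at or about the floor of 3. In the KI libraries *Mctp1* had a ratio of 0.892, with 919 counts in KI 8 against 617 to 696 in the other 3, where chance gives 1.6 such genes in 32.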

How the results depend on the processing

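The set held 32 genes under the rule, 16 when every KO library had to be at 0, 57 with a minimum of 25 counts in WT and KI libraries, 17 with a minimum of 100, and 32 to 38 when a library was left out. Of the calls between KI and WT cells, 15 (12 higher, 3 lower: *Bche*, *Bex1* and *Rnf150*) held in every setting. With library totals 3 genes were lower in place of 8, 16 of the 21 calls were shared, and *Mctp1* was added (0.57). Under that scaling 12 neighbours were higher in KO cells in place of 6, and 25 relatives higher and 15 lower in place of 12 and 24. Genes without a call changed sign under library totals: *Alpl* 0.0578, *Dab2* 0.18, *Fam241b* 0.14, *Hoxb4* 0.16, *Ivl* 0.27, *Kcnj16* 0.30 and *Tgfbr3* 0.019. With a library left out, these ran from -0.4116 to 0.2594 for *Alpl*, -0.2822 to 0.0568 for *Dab2*, -0.0624 to 0.2713 for *Dtna*, -0.3055 to 0.0593 for *Ivl*, -0.1334 to 0.0568 for *Kcnj16* and -0.4493 to 0.0575 for *Tgfbr3*, changing sign without WT 8 for *Alpl*, *Dab2*, *Dtna* and *Tgfbr3*, KI 6 or KI 7 for *Dtna*, WT 5-6, WT 7 or KI 7 for *Ivl*, and WT 5-6 or KI 7 for *Kcnj16*. The cause was not tested. Calls of the 32 genes stayed at 20 to 21 when a library was left out. With a replicate block, which shares only numbers, the same 21 genes were called (13 higher, 8 lower), as were 18 neighbours, and 42 relatives in place of 36. At this depth a level below 3 counts in a library was not detectable.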
